A study of Mus musculus with 2 samples.

Results

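The bone morphogenetic protein (BMP) and activin ligands and their secreted antagonists are described here in cells purified from the collecting duct, the tubule that receives urine from the nephrons, in kidneys of adult mice. The set holds 10 genes, chosen by name with the CKO minus WT signals of these arrays already known, so those values describe the set and support nothing: the ligand genes Bmp2, Bmp4, Bmp6, Bmp7, Inhba and Inhbb and the antagonist genes Grem1, Fst, Sostdc1 and Nog. Every non-control probe that carries one of these names was taken, which gave 13 of 41173 probes. Of the 10 genes 7 were measured, among 14212 named genes measured on at least 1 array. One-colour microarrays compared cells from Gata2 CKO mice with cells from WT mice, both aged 8 weeks and of mixed sex. The CKO genotype label is Gata2flox/-::Pax8-rtTA::Tet-Cre, that is, 1 floxed and 1 null allele of the transcription factor gene Gata2. The Pax8 promoter, which is active along renal tubules, drives the activator rtTA, which switches on the Cre when doxycycline is given. Cells outside the tubules of these mice therefore also lacked 1 Gata2 allele, and the WT label names no transgene. The protocol given for both samples starts doxycycline at an age of 4 weeks and continues it for 4 weeks. The labels do not say outright whether WT mice received it. DBA, a lectin that collecting duct epithelium binds, was used with magnetic beads to purify the cells.

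There was 1 array for each genotype. The design text speaks of 3 mice per genotype and the deposited arrays are named as mixtures, but pooling is not stated outright. No difference between the genotypes has a replicate check, and no test was possible. A difference is the log2 value of the CKO array minus that of the WT array, once both had been divided by their own 75th percentile (250.03 on the CKO array and 314 on the WT array). A probe counted as measured where the scanner software called it well above background, and the lowest such signal was 11.6 on the CKO array and 12.0 on the WT array. Gata2 itself had signals of 2424 on the CKO array and 3943 on the WT array at 1 probe, and of 2194 and 3432 at the other. After scaling the differences at these probes were −0.37 and −0.32. Whether these probes lie within the deleted part is not given, so they do not check the labels. The collecting duct markers Aqp2, a water channel, and Slc4a1, an anion exchanger, were both well above background on both arrays.

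BMPs and activins are dimeric secreted proteins of the TGF-beta superfamily. They bind pairs of type I and type II receptor kinases; BMP receptors act mainly through SMAD1, SMAD5 and SMAD9, activin receptors through SMAD2 and SMAD3, and SMAD4 joins both branches. Antagonists such as gremlin 1, noggin and follistatin bind the ligands outside the cell and keep them from their receptors. In the embryonic kidney the balance of Bmp4 and Grem1 sets where the ureteric bud, the precursor of the collecting duct, can grow out.

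At least 2-fold lower in the CKO cells were 4 of the 7 measured members, namely Grem1, Inhbb, Bmp6 and Bmp4, and 0 were at least 2-fold higher. Over all measured genes 3.29% were at least 2-fold lower and 1.25% at least 2-fold higher, and over all measured probes 2.49% and 1.37%. The members were chosen with this contrast in view, so nothing is read from their share. Their median difference was −1.74, against 0.02 for all measured genes. Grem1 is in it as a bound, and Bmp6 by a CKO signal not well above background. The median was −0.34 with only probes well above background on both arrays, where those 2 genes have no value, −0.83 with normexp background correction and −1.06 with no filter on dim probes. Bmp7 was slightly lower, and Sostdc1 and Nog lay within their spot errors of 0. Bmp2, Inhba and Fst were not well above background on either array. Of the 13 probes 6 were well above background on both arrays, 2 on the WT array only, 0 on the CKO array only and 5 on neither. The shares over all probes were 2.95% for WT-only detection, 1.36% for CKO-only detection and 34.8% for neither.

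**Figure D1:**
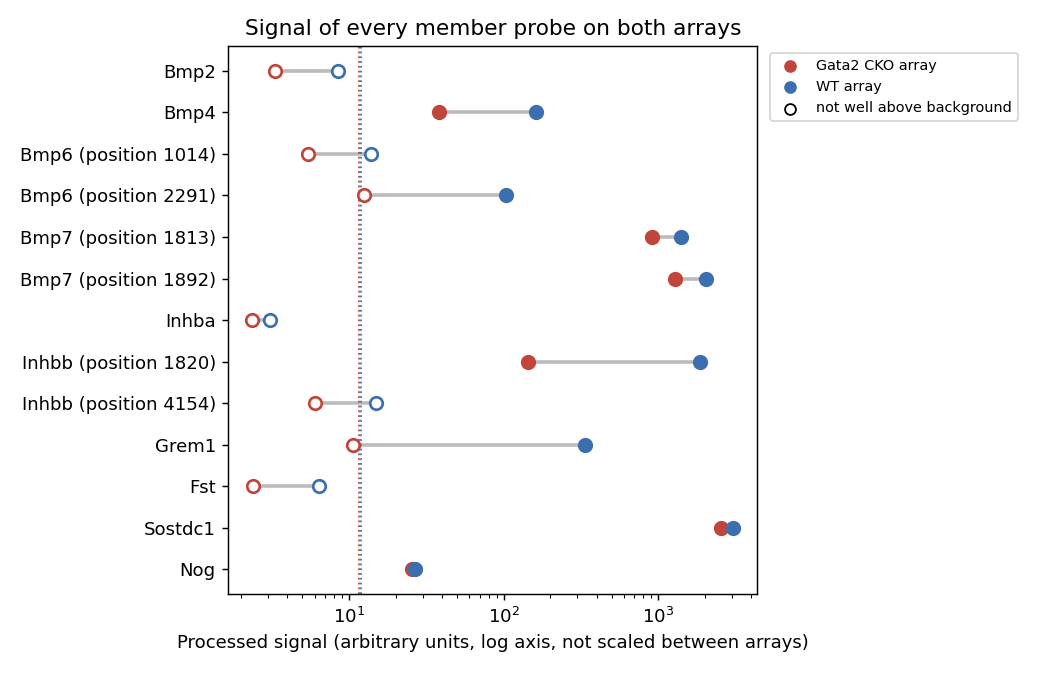
Processed signal of each of the 13 member probes on the Gata2 CKO array (red) and the WT array (blue), on a log axis and before scaling. Open circles are probes not well above background, and dotted lines mark the lowest signal well above background on each array. Grem1 and Inhbb (position 1820) have the widest gaps, and Nog and Sostdc1 the narrowest among probes measured on both arrays.

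Among the BMP ligands Bmp4 differed past 2-fold over repeated spots. It is a ligand made by stroma around the ureteric bud in the embryo. Its probe was printed 10 times on each array and is shown because all of these spots carried the difference. It lies at chr14:47003802-47003861 on the minus strand (mm9), at position 1327 of the transcript as the files number it, and reads 5′ to 3′:

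Bmp4 probe: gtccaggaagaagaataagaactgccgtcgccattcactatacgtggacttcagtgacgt

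The 10 spots ranged from 31.9 to 45.5 on the CKO array, with a median of 38.8, and from 146 to 194 on the WT array, with a median of 159.7. The 2 ranges did not overlap, and every spot was well above background. The difference was −1.74 ± 0.17 (SD over 10 spots), so Bmp4 stood at 29.9% of its WT level. The single spot differences lay between −2.00 and −1.50. These spots share 1 RNA sample per array, so their spread covers printing and hybridisation and not mice.

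Bmp6, a ligand known in liver for its part in iron regulation, was measured by its probe at transcript position 2291 with 12.4 on the CKO array, not well above background, and 103 on the WT array. It was 6.58-fold lower in the CKO cells, a difference of −2.72 ± 0.37 (spot error). The CKO signal lies above 11.6, the lowest signal called well above background on that array. The fold is therefore that of the 2 signals as read and is not set by that lowest signal. The CKO signal was still not called well above background, so the fold does not compare 2 detected levels. The other Bmp6 probe, at position 1014, was well above background on neither array, with 5.40 on the CKO array and 13.8 on the WT array, and gives no fold. Both Bmp6 probes had the lower signal on the CKO array, but so had all 5 member probes detected on neither array. The 2-fold difference comes from the position 2291 probe and its 1 spot per array. The dim probe is shown because it is the one that did not detect Bmp6. Its 60 bases are split over 15144 bases of the genome, at chr13:38561625-38576768 on the plus strand (mm9):

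Bmp6 probe at position 1014: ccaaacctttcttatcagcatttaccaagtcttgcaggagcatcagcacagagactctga

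Bmp7, which is needed for nephron formation in the embryo and is made by tubules of the adult kidney, was only slightly lower. Its repeated probe, at position 1813, had signals from 863 to 941 on the CKO array and from 1327 to 1494 on the WT array, over 10 spots each. After scaling the difference was −0.29 ± 0.03 (SD over 10 spots), and its 10 spot differences lay between −0.34 and −0.25. A second probe at position 1892 had 1289 on the CKO array and 2045 on the WT array, a difference of −0.34 ± 0.20 (spot error). CKO cells thus held 81.6% of the WT level by the first probe and 79.3% by the second. Of all measured probes 12.8% had a difference at or below that of the repeated probe.

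Bmp2, a close relative of Bmp4, was printed 10 times too, but no spot kept was well above background. The 10 CKO spots ranged from 2.39 to 6.17 and the 9 WT spots from 5.34 to 11.4, and 1 further WT spot, the only Bmp2 spot called well above background, was left out because the scanner software marked it as an outlier. The ranges overlap slightly, and no fold is given because both arrays lie under the level of detection.

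**Figure D2:**
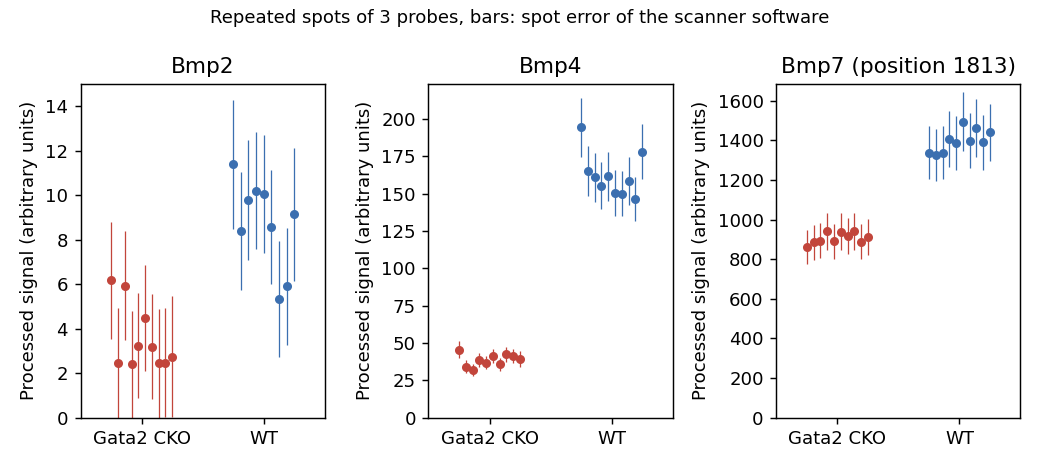
Processed signal of each repeated spot of the probes of Bmp2, Bmp4 and Bmp7 (position 1813) on the Gata2 CKO array (red, left) and the WT array (blue, right), before scaling, on linear axes that start at 0. Bars are the spot errors of the scanner software; the Bmp4 spots lie between 31.9 and 45.5 on the CKO array, against 146 to 194 on the WT array, and the Bmp2 spots drawn, which leave out the 1 WT spot marked as an outlier, lie under the lowest signal well above background.

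The activin genes Inhba and Inhbb encode the beta A and beta B subunits, which pair to form activins and join the alpha subunit to form inhibins. Inhba had a signal of 2.38 on the CKO array and 3.07 on the WT array, close to the negative control medians of 2.53 and 2.67, and no fold is given. Inhbb was bright on the WT array at 1 of its probes only. At transcript position 1820 the signal was 143 on the CKO array and 1877 on the WT array, a difference of −3.38 ± 0.21 (spot error), or 9.57% of the WT level. At position 4154 it was 6.03 on the CKO array and 14.9 on the WT array, and the scanner software called it well above background on neither, although the WT value passes the lowest signal so called elsewhere. Both Inhbb probes had the lower signal on the CKO array, but so had all 5 member probes detected on neither array. The direction at the dim probe is therefore no second check. The WT level at position 1820 was not shared at position 4154, so the 2-fold difference of Inhbb rests on 1 spot per array. The position 1820 probe lies at chr1:121314417-121314476 on the minus strand (mm9).

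Among the antagonists Grem1, whose protein gremlin 1 binds BMP2, BMP4 and BMP7, had a signal of 10.6 on the CKO array, not well above background, and 334 on the WT array. It was at least 23.0-fold lower in the CKO cells, a bound set by the level of detection on the CKO array. The 1 probe of Grem1, at position 1184 of its transcript, lies on chromosome 2 between 113589227 and 113589286 (minus strand, mm9) and was printed once on each array. The spot error of the Grem1 difference was 0.40. Among 25 repeated probes of like mean signal the median SD of the difference between spots was 0.13. Those probes were well above background on both arrays, which Grem1 was not, so their SD does not give the precision of Grem1.

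Sostdc1, an antagonist of BMPs and modulator of Wnt signals that distal tubules of the adult kidney express, was bright on both arrays, with 2547 on the CKO array and 3057 on the WT array. After scaling its difference was 0.07 ± 0.20 (spot error). Nog, which encodes noggin, was dim, with 25.7 on the CKO array and 26.6 on the WT array, and its difference of 0.28 ± 0.29 did not exceed its spot error. Fst, whose protein follistatin binds activins, had 2.39 on the CKO array and 6.41 on the WT array, well above background on neither. Of the 3 antagonists measured, Grem1 lay past 2-fold and Sostdc1 and Nog did not, and Fst has no call. Signals of different members are not set against each other, since probes differ in how well they bind.

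Directions were compared under 6 ways of scaling or background correction. Grem1, Inhbb, Bmp6, Bmp4 and both Bmp7 probes were lower under all of these. With normexp, whose offset of 50 shrinks differences of dim probes, Bmp4 was at −0.88 and Bmp6 at −0.83, short of 2-fold, while Grem1 was at −2.05 and Inhbb at −3.01. With the 8 spike-in transcripts made equal between arrays, differences of probes measured on both arrays moved by −0.55 and the median of all genes to −0.52. Sostdc1 then changed sign to −0.48 and Nog to −0.27, both above that median, and Bmp7 was at −0.84 by its repeated probe and −0.88 by the other.

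**Figure D3:**
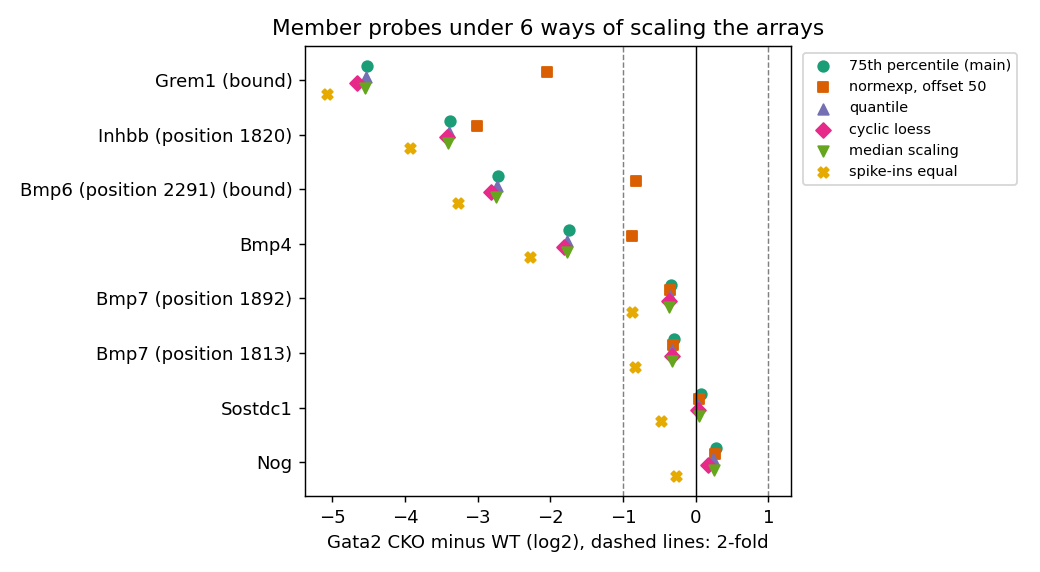
Gata2 CKO minus WT difference (log2) of the 8 member probes measured on at least 1 array, under 6 ways of treating the arrays, 1 symbol each. Dashed lines mark 2-fold and "bound" marks probes that were detected in WT cells alone. Grem1 and Inhbb stay beyond 2-fold under all 6, Bmp6 and Bmp4 under all but normexp, and Sostdc1 and Nog cross 0 with the spike-ins equal.

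Promoters are shown for the 4 members that were at least 2-fold lower, because the deleted factor binds GATA motifs. RefSeq promoters (GRCm38.p6) matched 5 of the 10 members. The 250 bases before the start of transcription were searched on both strands for 3 motifs, and no 2 matches overlapped. The GATA motif was taken as AGATAA, with a last letter of G allowed in place of A and a first letter of T allowed in place of A. The TATA box was taken as the letters TATAAA. The SMAD motif that responds to BMP was taken as GGCGCC. Of all 32851 promoters 26.5% held the GATA motif, 12.4% the TATA box and 9.59% GGCGCC. Capitals mark the matches.

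Inhbb, chr1:119422249-119422498, minus strand: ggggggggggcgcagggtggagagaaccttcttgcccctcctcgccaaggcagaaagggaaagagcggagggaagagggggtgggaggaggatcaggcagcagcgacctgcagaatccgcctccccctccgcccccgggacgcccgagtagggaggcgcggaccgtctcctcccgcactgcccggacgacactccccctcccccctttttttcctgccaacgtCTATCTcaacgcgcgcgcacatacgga
Grem1, chr2:113758649-113758898, minus strand: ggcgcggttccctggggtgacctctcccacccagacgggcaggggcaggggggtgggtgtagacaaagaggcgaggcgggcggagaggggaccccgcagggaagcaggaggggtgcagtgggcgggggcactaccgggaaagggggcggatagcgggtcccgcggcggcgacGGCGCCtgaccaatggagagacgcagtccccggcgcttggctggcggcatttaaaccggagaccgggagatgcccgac
Bmp6, chr13:38345466-38345715, plus strand: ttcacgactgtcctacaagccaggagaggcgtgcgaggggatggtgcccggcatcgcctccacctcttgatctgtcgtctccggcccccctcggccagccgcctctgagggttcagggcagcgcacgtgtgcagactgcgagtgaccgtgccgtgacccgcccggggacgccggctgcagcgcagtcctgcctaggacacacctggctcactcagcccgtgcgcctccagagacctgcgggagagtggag
Bmp4, chr14:46390670-46390919, minus strand: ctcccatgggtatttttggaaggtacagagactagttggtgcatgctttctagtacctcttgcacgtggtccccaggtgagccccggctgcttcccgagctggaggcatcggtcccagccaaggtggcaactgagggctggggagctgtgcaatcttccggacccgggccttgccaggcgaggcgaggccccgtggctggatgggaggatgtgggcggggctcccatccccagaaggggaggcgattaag

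The Inhbb promoter held a GATA match on the reverse strand, CTATCT as printed, from 27 to 22 bases before the start. The Grem1 promoter held GGCGCC from 78 to 73 bases before the start. The windows of Bmp6 and Bmp4 held none of the 3 motifs, and the matched promoter of Inhba, not shown, held TATAAA. The GC contents of those shown were 68.0% for Inhbb, 72.0% for Grem1, 68.8% for Bmp6 and 63.2% for Bmp4, against a median of 52.4% over all promoters. A match describes letters in the reference and not binding.

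The rest of the pathway was described from lists of 88 genes, of which 87 had a probe and 63 were measured. Of these 2, the TGF-beta ligand genes Tgfb2 and Tgfb3, were at least 2-fold lower in the CKO cells (3.17%) and 0 were higher by that much, against 3.29% and 1.25% of all genes. Their median was 0.05. Of the 63, 27 were below 0 and 35 above it, against 44.7% of all measured genes below 0 and 7754 of 14212 above it.

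Of the 13 other extracellular antagonists and modulators measured and reported here 11 were above 0 and 2 below, with a median of 0.24, but with spike-ins equal 3 were above and 10 below, with a median of −0.31. Wfikkn2, which binds the activin relative myostatin, was at 0.79 or more, well above background in CKO cells alone, by 1 of its 3 probes. The BMP-binding Chrdl1 was at 0.77, with 0.36 at another probe. Named after their values were seen, the antagonist Nbl1 was at 0.67 and the follistatin-like Fstl1 at −0.67 (−1.22 with spike-ins equal). All 3 TGF-beta ligands were lower in the main setting, Tgfb3, at 58.1 on the CKO array and 201 on the WT array, by −1.46 ± 0.22, Tgfb2 by −1.17 ± 0.24 and Tgfb1 by −0.26 ± 0.07 (spot errors). With normexp Tgfb3 was at −0.85, Tgfb2 at −0.41 and Tgfb1 at 0.0014, no longer lower.

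The other BMP, GDF and activin ligands did not pass 2-fold in either direction in the main setting. Of 24, 11 were measured, with 4 lower, 6 higher and 1 whose bound was 0, and with spike-ins equal all 11 were lower. Gdf15, a stress-induced ligand, was at −0.70, with 8951 on the CKO array and 18262 on the WT array, and Inha, the inhibin alpha subunit, at −0.58, with −0.10 at its other probe. With spike-ins equal both passed 2-fold, Gdf15 at −1.24 and Inha at −1.12.

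No measured receptor or SMAD reached 2-fold in the main setting. The 15 measured receptors and coreceptors had a median of 0.01 and ran from −0.42 to 0.61 by the probe that stands for each gene, with the type II receptor Acvr2b at 0.61 and the type I receptor Bmpr1b at 0.44 (−0.10 with spike-ins equal, when 14 of the 15 were below 0). The type II receptor Acvr2a was at −0.05 by that probe, and at 0.03 and 0.67 by its others. The 9 measured SMADs and SMAD ubiquitin ligases ran from −0.20 (Smurf2) to 0.10 (Smad1) by the probe that stands for each gene, and Smad3 was at −0.18. Other probes went further or the other way: Smad4, the SMAD shared by both branches, was at −0.0034 and at −0.78 by its second probe, Smurf2 had another at −0.40, and Smad1 another at −0.15. With spike-ins equal all 9 were below 0, at a median of −0.56 beside −0.52 for all genes. Of the target genes of BMP and activin signalling 7 of 12 were above 0, with a median of 0.11 (2 of 12 and −0.43 with spike-ins equal). Id1, an inhibitor of differentiation and a direct BMP target in many cells, was at 0.85, with 638 on the CKO array and 446 on the WT array, and its second probe gave 0.91; it stayed above 0 under the alternatives, from 0.30 to 0.88. Hey1, a transcriptional repressor, was at 0.70, and Bambi, a decoy receptor that BMP induces, at −0.67, or −1.21 with spike-ins equal (named after its value was seen). Of 21 pathway genes with 2 or more measured probes 7 had probes of opposite sign.

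**Figure D4:**
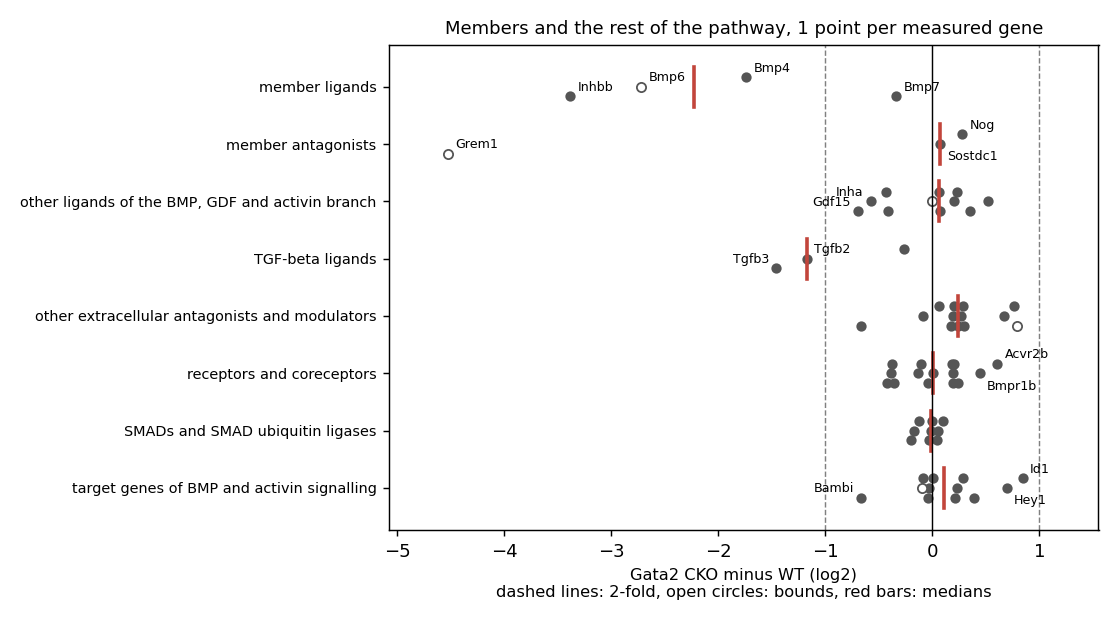
Gata2 CKO minus WT difference (log2) of each measured gene, by list, with medians as red bars, bounds as open circles and 2-fold as dashed lines. Grem1 lies farthest to the left of the genes plotted, at −4.52, while all receptors, SMADs and target genes lie within 2-fold.

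Markers of other cell types moved beside these differences. The cells are a bulk sample, so fewer cells of a type and less RNA per cell cannot be told apart. Of all measured genes 44.7% were below 0 in the main setting. All 6 macrophage markers were lower, here and in every alternative run. Their summed level was 34.9 in CKO and 77.1 in WT cells, in units of each array's 75th percentile, and Lyz2, a lysozyme gene, was at −1.25. Without Lyz2, their brightest gene, the sums were 10.2 in CKO and 18.2 in WT cells. Fibroblast and pericyte markers were lower in 6 of 8 measured, with sums of 21.1 in CKO and 24.1 in WT cells. Most of that sum was Acta2, smooth muscle actin, at 0.05 by its brightest probe and from −1.16 to 0.59 by its others, and without it the sums were 4.79 in CKO and 8.38 in WT cells. Among them Vim was at −1.53 and Pdgfrb at −1.47, and Pdgfra, which defines fibroblasts, was well above background on neither array. All 6 podocyte and parietal markers were lower by the probe that stands for each gene (1.11 in CKO and 2.27 in WT cells). Podxl, 1 of these 6, was at −1.21 by that probe and at 0.22 by its other. Lower too were all 6 endothelial markers (0.465 in CKO and 0.757 in WT cells) and 5 of 6 proximal tubule markers (4.93 in CKO and 7.23 in WT cells). Without its brightest gene, Synpo, the podocyte list summed to 0.554 in CKO and 1.71 in WT cells. Most of the fall in the proximal tubule sum came from Lrp2. It was at −1.58 by its brightest probe and from −1.20 to −0.26 by its others. Without Lrp2 the proximal tubule list summed to 3.94 in CKO and 4.28 in WT cells. With normexp the podocyte list had 5 lower and 1 higher, and the endothelial list 2 lower and 2 higher with a median of 0. Urothelial markers were mostly dim: of 6, 3 were measured, 2 of them lower, with sums of 0.582 in CKO and 0.825 in WT cells, and Upk1b, Upk2 and Upk3a were well above background on neither array. Of the 4 distal convoluted and connecting tubule markers 3 were lower, and of the 4 thick ascending limb markers 3 were higher (2 with spike-ins equal).

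Among the collecting duct markers, 7 of 8 of principal cells were lower, with a median of −0.34 and sums of 808 in CKO and 955 in WT cells. All 6 intercalated cell markers were higher, with a median of 0.85 and sums of 198 in CKO and 109.7 in WT cells. With spike-ins equal 5 of the 6 were higher, with a median of 0.30. The part of these cell types in the differences of Grem1, Inhbb, Bmp6 and Bmp4 was not tested.

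**Figure D5:**
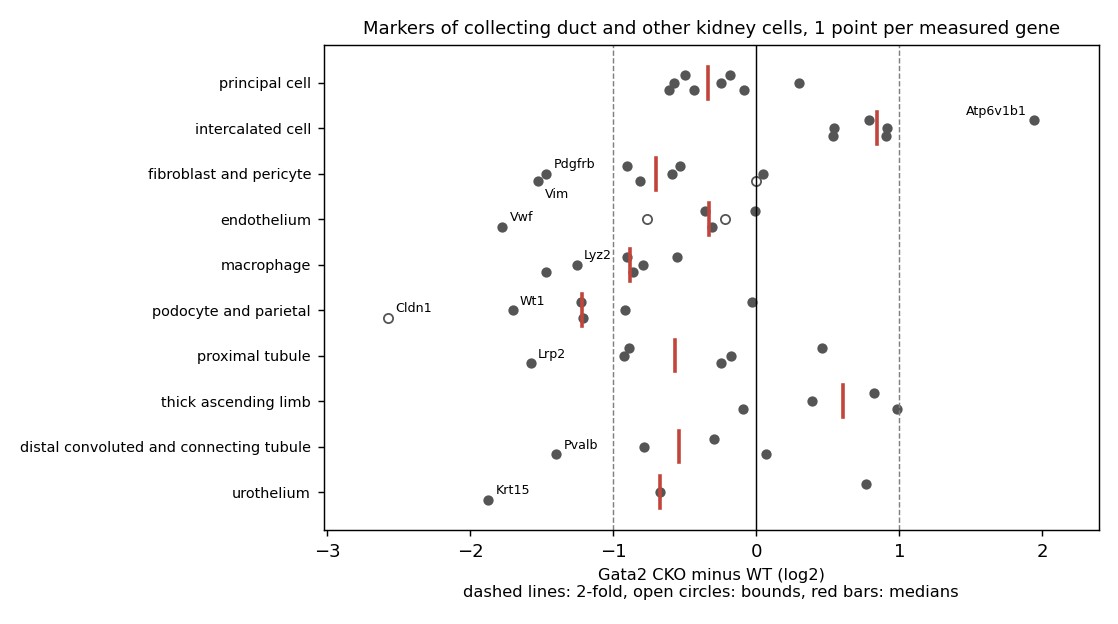
Gata2 CKO minus WT difference (log2) of each measured marker of 10 kidney cell types, with medians as red bars, bounds as open circles and 2-fold as dashed lines. In this main setting all measured macrophage, podocyte and endothelial markers lie below 0 by the probe that stands for each gene. The endothelial ones split 2 and 2 with normexp. All intercalated cell markers lie above 0 (5 of 6 with spike-ins equal).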

How the data were processed

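Per the labels' protocols, 50 ng of total RNA per sample was amplified and labelled with Cy3. The deposited files hold scanner output as spot intensity, extracted with Agilent Feature Extraction 10.7.3.1 per the file headers, which place the probes on mm9. The deposited flags for background, saturation and outliers were used as given. The authors' own normalization was not used here. Here the 73 (CKO) and 66 (WT) outlier spots and all controls were left out, 0 spots were saturated, and log2 of the processed signal minus the array's 75th percentile was averaged over spots of a probe. A probe was measured where over 50% of its spots were well above background. A gene took its brightest measured probe. A probe measured on just 1 array has a bound ("at least"): its dim side was set to the higher of its own signal and the lowest signal called well above background there. Where its own signal was the higher, as for Bmp6, the value is the measured difference and not a limit. RefSeq symbols (GRCm38.p6) were found for 26876 probes by accession, and 2672 of them took another symbol. Spot errors are the scanner software's, combined over both arrays. The number of arrays limits the precision, and no test was run.

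The members and lists were chosen with earlier results of these data known. Named are all members and the pathway genes at least 2-fold apart or, in a list with none, the 2 with the largest difference. Tgfb1, Acvr2a, Smad1 and Smad4 are named outside this rule, and others are said to be named after their values were seen. Markers are given by counts with a few examples, chosen after their values were seen. A gene of the pathway lists is not reported here and was left out of them and of their counts. The steps were tested on simulated data. Alternatives were normexp (offset 50), quantile, cyclic loess, median and spike-in scaling, stricter and no filtering of dim probes, averaging a gene's probes, and keeping flagged spots. Python 3.11.15 (numpy 2.4.6, pandas 2.3.3, matplotlib 3.10.9) and R 4.3.3 with limma 3.58.1 were used.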

Additional observations from a re-analysis of the deposited data

How the results depend on the processing

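No paired analysis was possible because each genotype has 1 array. Of 54 counts recomputed under the alternatives 42 stayed within 1.5 times the main count. Members at least 2-fold lower numbered 4 in the main setting. They numbered 2 with normexp, whose offset shrinks dim differences, and 2 with probes well above background on both arrays only, where Grem1 and Bmp6 have no value. They numbered 6 with no filter on dim probes, where Bmp2 and Fst, under the level of detection on both arrays, join. Pathway genes at least 2-fold lower numbered 2 in the main setting, 0 with normexp, 6 with spike-ins equal and 4 with no filter on dim probes, where 6 were higher by that much, against 0. All genes at least 2-fold lower and higher numbered 468 and 178 in the main setting, 174 and 55 with normexp, 1360 and 41 with spike-ins equal and 890 and 636 with no filter, and 27.6%, 24.0%, 2.93% and 41.7% of these calls were higher. Of 62 values of member probes 13 moved by more than their spot error, all with normexp, cyclic loess or spike-in scaling, and no difference past 2-fold changed sign. For Grem1, Bmp6 and Inhbb the limit is 1 spot per array and, on the CKO side of Grem1 and Bmp6, a signal at the level of detection.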
